A study of Mus musculus with 14 samples.

Results

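The genes described here are 42 named markers of neutrophil and monocyte differentiation. They were grouped by the stage at which maturing cells express them: 6 primary granule genes, 8 secondary granule genes, 14 late neutrophil genes, 7 monocyte genes and 7 genes shared by phagocytes. Of these, 40 were matched to rows of the count files by symbol, and Emr1 through its current symbol Adgre1, which leaves Azu1 unmatched. Of the 41, 40 passed the filter on low counts, out of 14512 genes tested and 50686 in the files. Ly6g, the neutrophil surface marker, did not pass, with 0 counts in 3 groups and 3 counts in the fourth. The cells were HPCLSK lines, mouse haematopoietic stem and progenitor cell lines kept in culture, on a C57BL/6N background. They carried either intact Cdk6 (WT) or a knockout of Cdk6, a cyclin D-dependent kinase (KO), and were either untransformed or transformed with BCRABLp210, the fusion kinase of chronic myeloid leukaemia (p210). Of the 14 libraries, 4 were of WT and 3 of KO lines without transformation, and 3 of WT and 4 of KO lines with p210. The genotypes were compared within each state, the states within each genotype, and the 2 genotype effects with each other. The medium of the untransformed lines held 2% SCF beside IL-6 at 12.5 ng/ml, while the p210 lines received neither, so transformation and medium cannot be told apart, and the descriptions of the p210 samples also carry the letters SCF, whose meaning they do not settle. The labels name neither the ages of the animals nor the allele of the knockout, and a group holds a few lines that each derive from cultured cells. A code and a letter in the descriptions were read as naming a cell line, and by that reading the replicates of a group are separate lines. The labels do not say this outright, and the p-values speak only of how these libraries spread.

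Neutrophils make their granules in an order that follows maturation. Promyelocytes fill primary granules with myeloperoxidase and serine proteases, myelocytes and metamyelocytes then make the proteins of secondary and gelatinase granules, and late forms switch on calprotectin, stefins and surface receptors for microbial products. Monocytes branch from the same progenitors, share part of the primary granule programme, and later express Fc receptors, scavenger receptors and clotting factor XIII. The NADPH oxidase and lysozyme serve both cell types. Factors of the C/EBP family, PU.1 and RUNX1 are known to drive many of these genes.

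Total counts per library ranged from 20270348 to 50303271. Levels are given as CPM, with library sizes scaled by TMM, listed for replicates in order, and a gene passed the test when its adjusted p in edgeR's quasi-likelihood test was under 0.05. Cdk6 was at 970 to 1305 CPM in WT untransformed, 236 to 271 in KO untransformed and 576 to 606 in WT p210 libraries. In the KO p210 group it was at 325, 577, 245 and 162 CPM, so the library labelled KO p210 replicate 2 lay within the WT range and goes against its label. WT untransformed replicate 3 stood apart for the genes described here, being the lowest of its group for 32 of the 40. Its summed mast cell and basophil markers were at 7690.4 CPM against 1635 to 3292 in the other WT untransformed libraries, and its summed megakaryocyte markers at 7348 CPM against 2532 to 5293. Of the surface markers of stem and progenitor cells, Kit was lower with p210, at 359.8 to 471 CPM before and 35.5 to 59.1 CPM after in WT, and at 247 to 276 CPM before and 14.9 to 42.7 CPM after in KO libraries. Ly6a, which encodes Sca-1, was at 13.6 to 112 CPM in WT and 26.4 to 42.2 CPM in KO untransformed libraries, and at 10.3 to 13.9 CPM in WT p210 and 0.553 to 29.1 CPM in KO p210 libraries and passed edgeR's test on all libraries in no comparison. Without both libraries that stood apart, the counts of members passing the test were 6 against 9 for KO against WT in untransformed lines, 9 against 13 for p210 in WT and 13 against 11 for p210 in KO. Between p210 genotypes and for the interaction no member passed, with or without these libraries.

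In untransformed lines, the knockout libraries held more transcript of 9 phagocyte genes than the wild type. These were both lysozymes, 3 subunits of the NADPH oxidase (Cyba, Ncf1 and Ncf4), the late neutrophil genes Padi4, Il1f9 and Clec4d, and the macrophage marker Emr1. Thus 9 of the 40 members passed the test as higher and 0 as lower, where 15.2% of all genes passed in either direction, 8.73% as higher and 6.5% as lower. The knockout libraries lay entirely above the wild type for 25 members and entirely below for 0, where 20.8% of all genes lay entirely above and 18.9% entirely below. The median fitted log2 fold change was 1.72 over the members and -0.02 over all genes. It was 1.75 with Stfa1 and Stfa2, which have 0 counts in KO lines, set at their bounds and Stfa3 left out. Stfa3 also has 0 counts there, and its floor in KO lies above its pooled level in WT, so it gives no bound. The fitted value was above 0 for 36 members, and the 4 below 0 were the stefins. By stage, 5 of 7 shared phagocyte genes rose, 3 of 13 late neutrophil genes, 1 of 7 monocyte genes, 0 of 5 primary granule genes and 0 of 8 secondary granule genes. In these bulk cultures, more cells of a type and more RNA per cell cannot be told apart.

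The calls of this comparison changed with single libraries. Leaving out a library also changes the test and the adjustment for all genes. Whether the losses were particular to the members was not tested. All 9 were lost without KO untransformed replicate 2, the library that was highest of its group for 30 of the 40 members, and 3 members passed when KO untransformed replicate 1 was left out. Among WT untransformed libraries, leaving out replicate 1 gave 14, replicate 2 or 4 gave 4, and replicate 3 gave 7. Within libraries of the first label code (replicates 1 and 2) 4 members passed and within those of the second code, with 1 KO library, 0 did, while each of the 9 kept its direction in both.

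In p210 lines, 0 of the 40 members passed edgeR's test between the genotypes, where 4.44% of all genes passed in either direction, 0.882% as higher and 3.56% as lower. At an unadjusted p under 0.05 there were 12, where 19.9% of all genes were, and DESeq2 called 7, of which 6 were higher (Il1f9, Padi4, Cyba, Ltf, Fpr1 and Fpr2) and 1, Mrc1, was lower. The fitted log2 fold change was above 0 for 36 of the 40, with a median of 1.32 against 0.00 over all genes. The knockout libraries lay entirely above the wild type for 10 members and entirely below for 0, where 5.64% of all genes lay entirely above and 7.7% entirely below. Of these 10, 9 were also apart in untransformed lines: both lysozymes, Cyba, Ncf1, Ncf4, Il1f9, Padi4, Fpr1 and Trem1. The genotype effect itself was not shown to differ between the states, since 0 of 40 passed the interaction test of edgeR, where 0.0345% of all genes did. There were 6 at an unadjusted p under 0.05, against 14.1% of all genes, and DESeq2 called 2 (Mrc1 and Stfa2l1). Leaving out WT untransformed replicate 3 gave 3 calls between p210 genotypes (Il1f9, Ncf1 and Fpr1), and leaving out WT p210 replicate 2 or KO p210 replicate 4 gave 1 (Mrc1), as did leaving out KO p210 replicate 3 (Cyba). Within the first label code 3 members passed between p210 genotypes and within the second 0.

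With p210, the primary granule genes Mpo and Prtn3 fell in both genotypes, while the late genes Padi4, Clec4e, Stfa2, Stfa3 and Stfa2l1 rose in both. With the cell line as a block, Mpo passed in neither genotype, Prtn3 not in WT and Clec4e not in KO. In WT lines 11 members rose and 2 fell, where 39.5% of all genes passed, 21.9% as higher and 17.6% as lower. In KO lines 6 rose and 5 fell, where 37.2% of all genes passed, 19.2% as higher and 18.0% as lower. The p210 libraries lay entirely above the untransformed for 12 members and entirely below for 0 in WT, where 23.5% and 21.6% of all genes did. At an unadjusted p under 0.05 there were 17 members in WT, where 48.6% of all genes were, and 15 in KO, where 46.8% were. In KO lines 9 members lay entirely above and 10 entirely below, where 22.6% and 23.5% of all genes did. The total share of members passing the test, in either genotype, was thus no larger than over all genes. By stage, 2 of 5 primary granule genes fell in each genotype and 6 of 13 late neutrophil genes rose in each. The late genes that rose were Stfa2, Stfa3, Stfa2l1, Padi4 and Clec4e in both genotypes, Clec4d in WT and Stfa1 in KO. With 0 to 48 counts per untransformed group, the stefins passed the filter only through p210 libraries. A rise was thus the only call open to them, and the late neutrophil count is no independent sign of a rise. Among the other stages, 1 of 8 secondary granule, 1 of 7 monocyte and 3 of 7 shared genes rose in WT lines. In KO lines 1 secondary granule gene and 2 monocyte genes fell and 0 of the shared genes passed the test. Of these monocyte genes, Klf4 passed the filter only through untransformed libraries, so a fall was the only call open to it. Across the 6 cell lines present in both states, 13 of the 40 members were higher after p210 in every line and 2, Prtn3 and F13a1, were lower in every line. The share of all genes that did so was not computed, so these counts show no excess over other genes. The 13 include the stefins, which were tested only through p210 libraries. Without WT p210 replicate 3 the count in WT was 8 against 13. Within the first label code 6 members passed in WT and 10 in KO lines, and within the second 2 and 0.

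**Figure D1:**
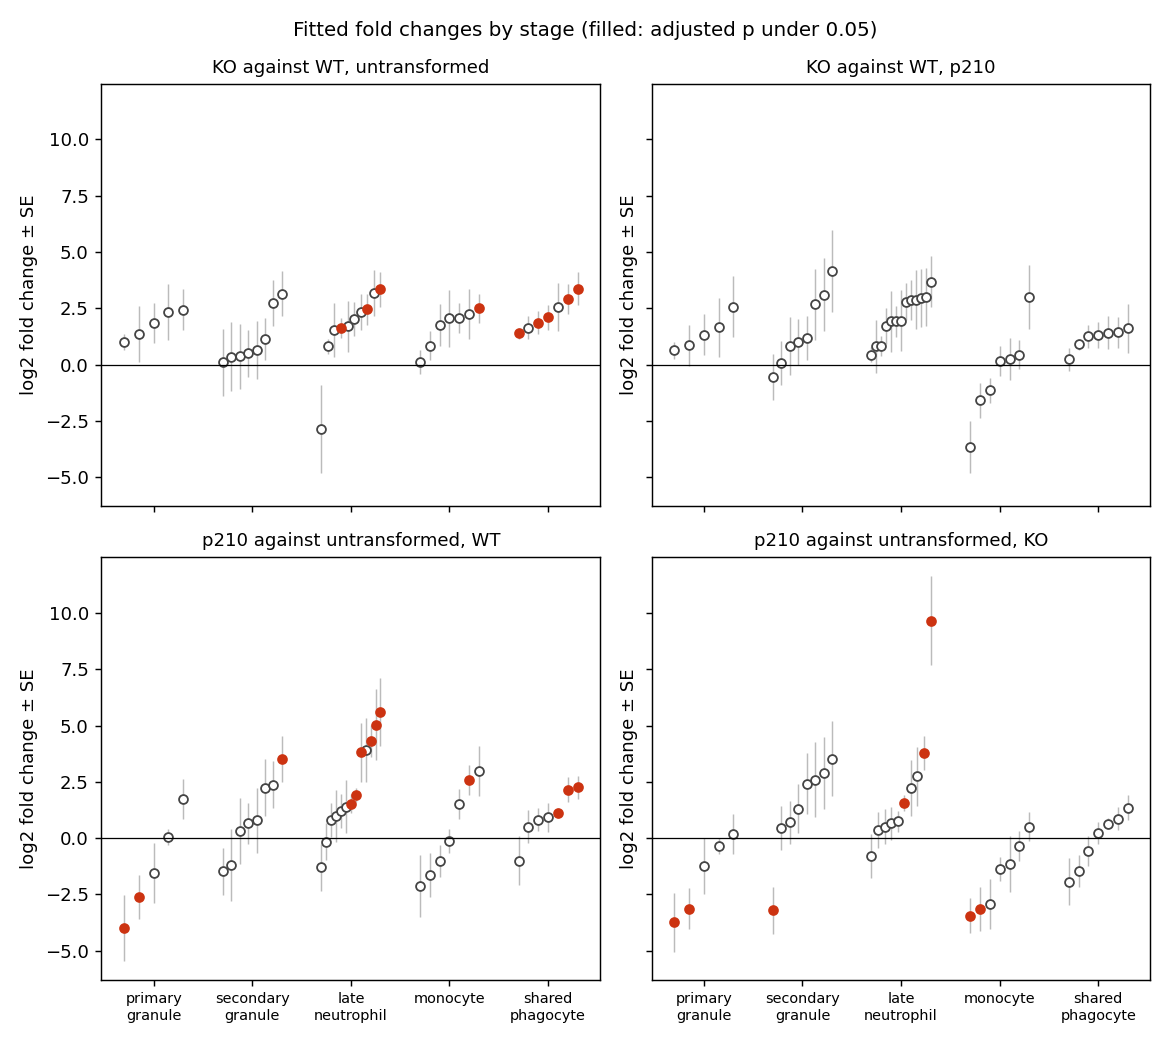
Fitted log2 fold changes (points) with standard errors (lines) of the members in the 4 comparisons, ordered by size within each stage. Filled points have an adjusted p under 0.05, and genes with no counts in 1 of the groups compared (Stfa1, Stfa2 and Stfa3 in untransformed KO lines) are not drawn. In untransformed lines the filled points for the knockout are all above 0, and with p210 primary granule points lie among the lowest and late neutrophil points among the highest. The stefins among the latter passed the filter only through p210 libraries.

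**Figure D2:**
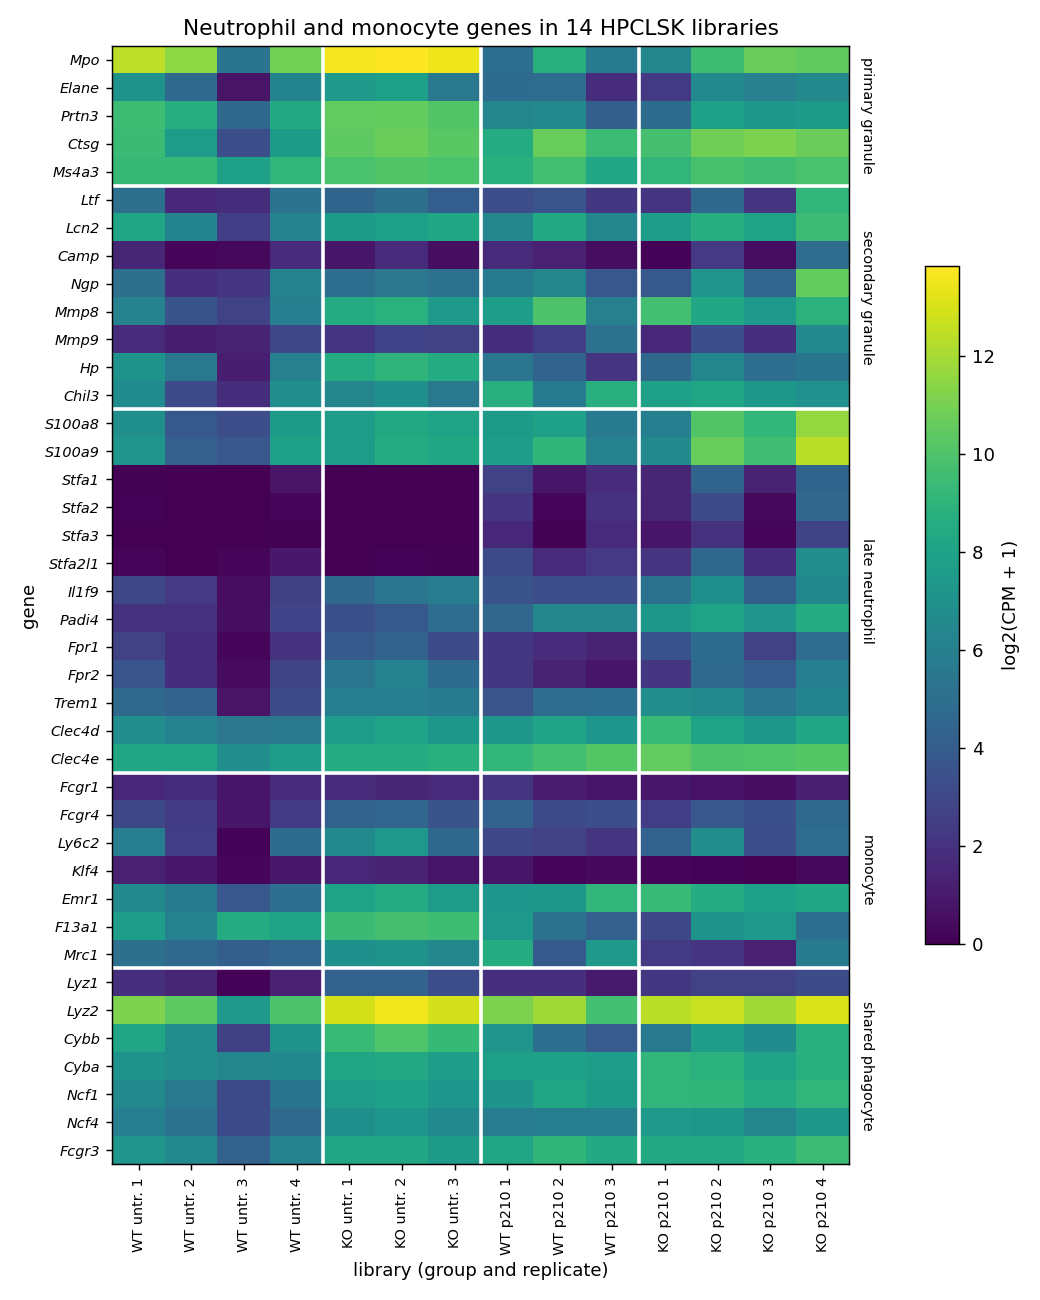
Level of each of the 40 members, as log2(CPM + 1), in the 14 libraries (columns, by group and replicate) and grouped by stage (rows). The column of WT untransformed replicate 3 is dark over most rows, Mpo and Lyz2 form the brightest rows in untransformed KO libraries, and the stefin rows are dark in all untransformed libraries.

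Among primary granule genes, Mpo (chr11:87793581-87804413, GRCm38) encodes myeloperoxidase, which makes hypochlorous acid. It stood at 5630.5, 2875, 38.4 and 1872 CPM in WT untransformed and at 12835, 14589 and 11569 CPM in KO untransformed libraries. It stood at 32.1, 409 and 51.5 CPM in WT p210 and at 83.9, 749, 1654 and 1412 CPM in KO p210 libraries. All KO untransformed libraries lay above all WT, but WT replicate 3 held far less than the rest of its group, and Mpo did not pass between genotypes, at a log2 fold change of 2.32 ± 1.25 (adjusted p = 0.218). With p210, Mpo fell by 15.9-fold in WT, a log2 fold change of -3.99 ± 1.45 (adjusted p = 0.0464), though the groups overlapped through WT untransformed replicate 3. In KO lines it fell by 13.3-fold, a log2 fold change of -3.74 ± 1.31 (adjusted p = 0.0413), and there the groups did not overlap. It fell in 5 of 6 lines, the exception being the line of WT untransformed replicate 3. With the cell line as a block, neither change passed the test, at -3.04 (adjusted p = 0.282) in WT and -4.76 (adjusted p = 0.0937) in KO. Of 24 alternatives, the call was kept in 7 for WT and 10 for KO. The call in WT was lost without any 1 of 11 libraries (adjusted p = 0.0532 to 0.132), the exceptions being WT untransformed replicate 3, WT p210 replicate 2 and KO p210 replicate 1. That in KO was lost without any 1 KO library or without WT untransformed replicate 2 or 4 (adjusted p = 0.0530 to 0.0894).

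Prtn3 (chr10:79874476-79883174), proteinase 3, followed the same order. It stood at 748, 395, 24.3 and 350.0 CPM in WT untransformed and 1452, 1541 and 1082 CPM in KO untransformed libraries. After p210 it was at 77.6, 89.7 and 17.3 CPM in WT and 28.8, 242, 159.6 and 188 CPM in KO libraries. The untransformed genotypes did not overlap, but the difference did not pass, at 1.84 ± 0.88 (adjusted p = 0.171) on the log2 scale. With p210 it fell in all 6 lines, by 2.62 ± 0.97 (adjusted p = 0.0492) on the log2 scale in WT and by 3.13 ± 0.91 (adjusted p = 0.0187) in KO. The call in WT was kept in 6 of 24 alternatives and lost with the cell line as a block (-1.99, adjusted p = 0.123), while that in KO was kept in 23 of 24. Without any 1 library other than WT untransformed replicate 3 and KO p210 replicate 1, the call in WT was lost (adjusted p = 0.0575 to 0.139).

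Ctsg (chr14:56099881-56102574), cathepsin G, passed edgeR's test on all libraries in no comparison. It stood at 676, 198, 8.89 and 187 CPM in WT untransformed and 1373, 1666 and 1278 CPM in KO untransformed libraries. After p210 it was at 367, 1590.0 and 725 CPM in WT and 853, 1809, 2189.7 and 1614 CPM in KO libraries, overlapping the untransformed level in both genotypes. The log2 fold change with p210 was 1.74 ± 0.89 (adjusted p = 0.141) in WT and 0.17 ± 0.89 (adjusted p = 0.902) in KO. Between untransformed genotypes the libraries did not overlap, at 2.43 ± 0.91 (adjusted p = 0.0883). Without WT untransformed replicate 1, the highest of its group, the p210 effect in WT was 2.75 (adjusted p = 0.0310) and the genotype difference 3.42 (adjusted p = 0.0274). DESeq2 also called the genotype difference, at 2.42 (adjusted p = 0.0350). By group mean, the leading primary granule transcript changed. Mpo made up 68.4% of the summed CPM of these genes in WT and 76.7% in KO untransformed libraries. Ctsg made up 54.2% in WT and 44.9% in KO p210 libraries. CPM do not account for gene length, but by mean TPM the same genes led in each group. Ms4a3 and not these led in WT untransformed replicate 3 and WT p210 replicate 1.

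Ms4a3 (chr19:11629496-11640851), a membrane protein of granulocyte and monocyte progenitors, passed edgeR's test on all libraries in no comparison. It stood at 609.9, 609, 241 and 542 CPM in WT untransformed, 942, 1080.3 and 972 CPM in KO untransformed, 432, 801 and 300.1 CPM in WT p210 and 549, 900.1, 776 and 929 CPM in KO p210 libraries. KO lay above WT without overlap in untransformed lines, with a log2 fold change of 1.00 ± 0.35 (adjusted p = 0.0724). This difference passed without WT p210 replicate 2 (adjusted p = 0.0440) and with DESeq2 (adjusted p = 0.0243). Elane, neutrophil elastase, ranged from 0.686 to 133 CPM in WT untransformed and 45.1 to 222 CPM in KO untransformed libraries to 2.39 to 29.3 CPM in WT p210 and 4.18 to 94.0 CPM in KO p210 libraries, and passed edgeR's test on all libraries in no comparison.

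The promoters of 5 members are shown: Mpo and Prtn3, which fell with p210 in both genotypes, Clec4e and Padi4, which rose in both, and Ctsg, a primary granule gene that passed edgeR's test in neither. Each run is 300 bases of the RefSeq promoter table (GRCm38.p6), from 250 before to 50 after the start that RefSeq gives, 5′ to 3′ on the gene's strand. The gene spans printed here are those of the count files (GENCODE M13), which begin upstream of the RefSeq start for Mpo, Prtn3 and Padi4. The Prtn3 window lies wholly inside its span. Capitals mark matches on either strand to the C/EBP motif TTGCNNAA, the PU.1 motif GAGGAA and the RUNX motif TGTGGT. The Mpo promoter lies at chr11:87793534-87793833 on the plus strand, that of Prtn3 at chr10:79879417-79879716 on the plus strand, that of Ctsg at chr14:56102525-56102824 on the minus strand, that of Clec4e at chr6:123289822-123290121 on the minus strand and that of Padi4 at chr4:140774154-140774453 on the minus strand.
Mpo: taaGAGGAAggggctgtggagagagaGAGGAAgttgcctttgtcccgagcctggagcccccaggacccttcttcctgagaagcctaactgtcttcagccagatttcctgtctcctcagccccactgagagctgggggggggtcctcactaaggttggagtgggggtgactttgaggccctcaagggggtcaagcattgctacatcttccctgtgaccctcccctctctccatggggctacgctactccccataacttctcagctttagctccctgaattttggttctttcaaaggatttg
Prtn3: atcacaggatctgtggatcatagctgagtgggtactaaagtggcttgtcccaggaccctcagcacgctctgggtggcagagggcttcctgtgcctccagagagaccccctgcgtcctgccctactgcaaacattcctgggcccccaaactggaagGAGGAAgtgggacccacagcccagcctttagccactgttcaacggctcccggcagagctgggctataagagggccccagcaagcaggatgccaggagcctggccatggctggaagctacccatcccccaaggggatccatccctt
Ctsg: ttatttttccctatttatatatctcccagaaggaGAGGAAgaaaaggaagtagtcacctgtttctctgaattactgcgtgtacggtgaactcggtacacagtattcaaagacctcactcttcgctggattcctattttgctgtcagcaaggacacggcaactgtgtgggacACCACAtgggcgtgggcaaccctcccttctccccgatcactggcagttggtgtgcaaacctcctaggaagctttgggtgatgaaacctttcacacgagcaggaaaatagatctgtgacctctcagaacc
Clec4e: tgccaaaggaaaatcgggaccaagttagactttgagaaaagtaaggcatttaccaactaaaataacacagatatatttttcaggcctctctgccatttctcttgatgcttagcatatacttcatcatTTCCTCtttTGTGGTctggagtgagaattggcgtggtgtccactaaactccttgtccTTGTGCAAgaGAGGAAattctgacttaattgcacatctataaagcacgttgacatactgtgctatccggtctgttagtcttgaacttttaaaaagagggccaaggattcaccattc
Padi4: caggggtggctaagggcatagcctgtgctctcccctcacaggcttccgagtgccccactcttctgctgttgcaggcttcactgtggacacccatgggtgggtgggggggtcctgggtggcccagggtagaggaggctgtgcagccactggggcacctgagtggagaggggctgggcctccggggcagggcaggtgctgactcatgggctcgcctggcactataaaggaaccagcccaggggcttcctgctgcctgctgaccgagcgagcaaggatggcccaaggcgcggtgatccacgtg
Mpo held 2 PU.1 matches, Prtn3 held 1, and Ctsg held 1 PU.1 and 1 RUNX match. Clec4e held 1 C/EBP, 2 PU.1 and 1 RUNX match, and Padi4 held 0 of any. Of the 41 matched members, 37 had an entry in the table. A PU.1 match was found in 26 of the 37 (70.3%) and in 31.3% of 27025 genes, a C/EBP match in 11 (29.7%) against 12.2%, and a RUNX match in 13 (35.1%) against 18.9%. The matches describe letters in a fixed window and not binding.

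**Figure D3:**
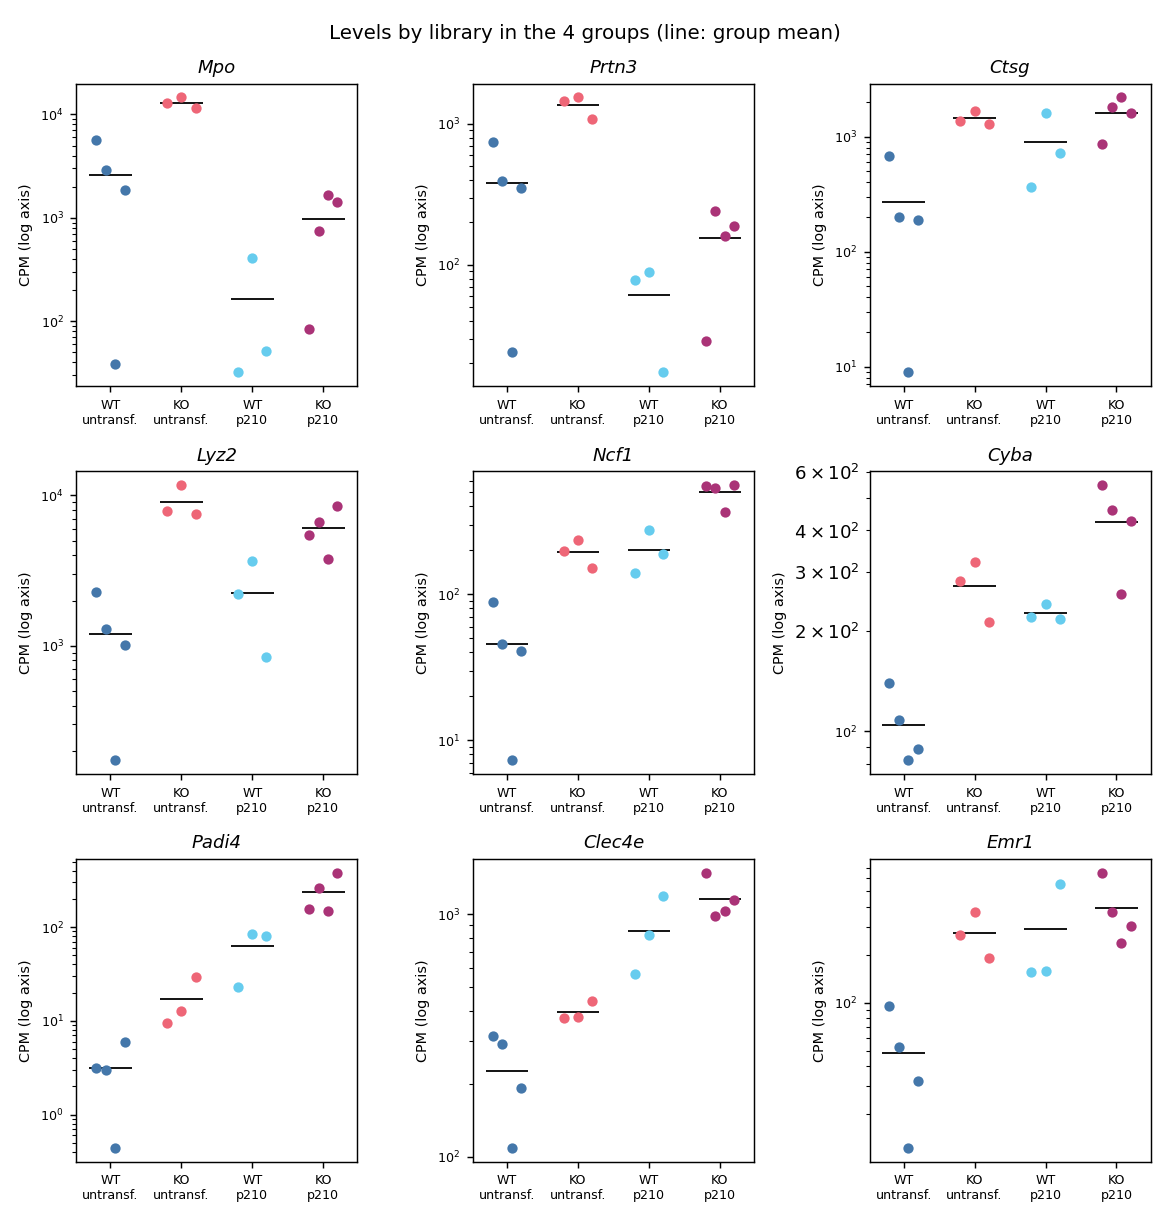
CPM of 9 members on log axes, 1 point per library and a line at the mean of each group. Mpo and Prtn3 are lowest in p210 groups, Ctsg is not, Lyz2, Ncf1, Cyba and Emr1 are higher in KO than in WT untransformed libraries without overlap, and Padi4 and Clec4e are highest in p210 groups.

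Secondary granule genes showed 1 rise and 1 fall with p210 and 0 changes that passed between genotypes. Mmp8 (chr9:7558456-7568485), neutrophil collagenase, stood at 70.2, 11.1, 5.49 and 61.1 CPM in WT untransformed and 359.8, 449 and 173 CPM in KO untransformed libraries. After p210 it was at 204, 993 and 62.9 CPM in WT and 825, 300.1, 171 and 478 CPM in KO libraries. It rose with p210 in WT by 11.4-fold (3.51 ± 1.02, adjusted p = 0.0173), though the groups overlapped, and not in KO (0.44 ± 0.97, adjusted p = 0.755). The rise in WT was lost with the cell line as a block (3.77, adjusted p = 0.0534) and without WT p210 replicate 2 (1.86, adjusted p = 0.141), the library with the highest level in its group. Between untransformed genotypes it lay above WT in each KO library without passing the test (3.15 ± 1.01, adjusted p = 0.0542). This difference passed without any 1 of WT untransformed replicate 1, WT p210 replicate 2 and WT p210 replicate 3 (adjusted p = 0.0365 to 0.0494) and with DESeq2 (adjusted p = 0.00538). The difference between the p210 effects of the genotypes did not pass either (-3.07 ± 1.36, adjusted p = 0.344).

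Hp (chr8:109575128-109579172), haptoglobin, stood at 137, 45.7, 1.21 and 64.9 CPM in WT untransformed and 367, 519 and 362 CPM in KO untransformed libraries. After p210 it was at 42.7, 20.4 and 3.25 CPM in WT and 24.7, 80.8, 32.7 and 40.9 CPM in KO libraries. Between untransformed genotypes Hp lay above WT in each KO library without passing edgeR's test on all libraries. DESeq2 called that difference, at a log2 fold change of 2.74 (adjusted p = 0.0358). With p210 in KO lines Hp fell without overlap, by 3.21 ± 1.04 (adjusted p = 0.0298) on the log2 scale, and WT lines gave -1.48 ± 1.05 (adjusted p = 0.286). The call in KO was lost without any 1 of KO untransformed replicate 1, KO untransformed replicate 2, KO untransformed replicate 3, KO p210 replicate 1, KO p210 replicate 3 and KO p210 replicate 4 (adjusted p = 0.0555 to 0.0711). Lcn2, lipocalin 2, which binds bacterial siderophores, stood at 289, 75.1, 4.89 and 66.3 CPM in WT untransformed and 183, 227 and 300.3 CPM in KO untransformed libraries. It was at 84.3, 347 and 80.3 CPM in WT p210 and 204, 386, 248 and 703 CPM in KO p210 libraries, and its groups overlapped in each comparison. Chil3, a chitinase-like lectin, stood at 106, 8.28, 2.47 and 115 CPM in WT untransformed and 76.2, 123 and 46.1 CPM in KO untransformed libraries. It was at 422, 51.0 and 418 CPM in WT p210 and 242, 281, 161 and 126 CPM in KO p210 libraries, higher after p210 in all 6 lines, with log2 fold changes of 2.36 ± 1.05 (adjusted p = 0.0925) in WT and 1.31 ± 1.07 (adjusted p = 0.364) in KO that did not pass the test. Of the 50-base windows of Chil3 transcripts, 26.9% also occur in Chil4 or Gm6522, so part of its level is uncertain.

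For 4 classical granule proteins, 1 KO p210 library stood apart from the rest of its group. Ngp, neutrophilic granule protein, stood at 33.8, 2.68, 3.51 and 73.1 CPM in WT untransformed and 30.7, 44.0 and 34.6 CPM in KO untransformed libraries. It was at 52.9, 80.8 and 12.3 CPM in WT p210 and 13.1, 148, 22.2 and 1491 CPM in KO p210 libraries, so KO p210 replicate 4 lay far above every other library. Ltf, lactoferrin, showed the same in KO p210, at 3.40, 24.7, 3.46 and 545 CPM, as did the cathelicidin Camp at 0.104, 3.86, 0.407 and 30.0 CPM and the gelatinase Mmp9 at 1.88, 9.19, 2.59 and 89.5 CPM. In the other groups Ltf ranged from 1.87 to 37.1 CPM, Camp from 0.132 to 2.27 CPM and Mmp9 from 1.23 to 36.4 CPM. None of these 4 genes passed edgeR's test in any comparison, with log2 fold changes for KO against WT in p210 lines of 4.15 ± 1.81 (adjusted p = 0.226) for Ltf, 3.10 ± 1.62 (adjusted p = 0.317) for Ngp, 2.68 ± 1.58 (adjusted p = 0.378) for Camp and 0.83 ± 1.28 (adjusted p = 0.780) for Mmp9. DESeq2 called the first of these, at 4.16 (adjusted p = 0.0418), and also Ngp with p210 in KO, at 3.52 (adjusted p = 0.0287).

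**Figure D4:**
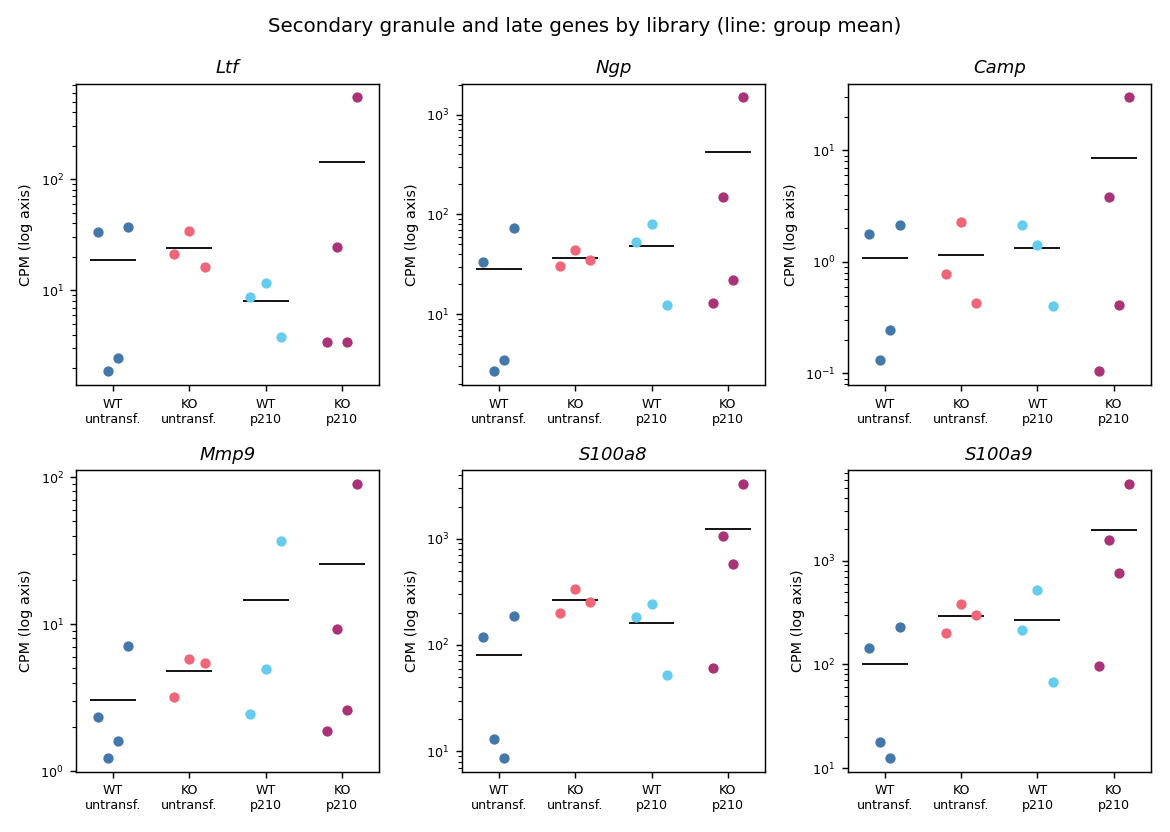
CPM of 4 secondary granule genes and the calprotectin genes on log axes, 1 point per library and a line at the group mean. KO p210 replicate 4 is the highest point in all 6 panels, and the 3 remaining KO p210 libraries overlap the other groups for Ltf, Ngp, Camp and Mmp9.

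Among late neutrophil genes, Padi4 (chr4:140745865-140774236), the enzyme that citrullinates histones in neutrophils, was lowest in WT untransformed and highest in KO p210 libraries. It stood at 3.14, 3.02, 0.439 and 5.99 CPM in WT untransformed and 9.58, 12.9 and 29.3 CPM in KO untransformed libraries. It was at 22.9, 84.5 and 80.7 CPM in WT p210 and 158, 263, 148 and 378 CPM in KO p210 libraries, so the groups overlapped in none of the 4 comparisons. With p210 it rose by 19.8-fold in WT (4.31 ± 0.73, adjusted p = 0.000802) and by 13.6-fold in KO (3.77 ± 0.76, adjusted p = 0.00279), in all 6 lines and in 23 of 24 alternatives each. KO exceeded WT in untransformed lines by 5.50-fold (2.46 ± 0.69, adjusted p = 0.0359), a call kept in 12 of 23 alternatives, while p210 lines gave 1.92 ± 0.69 (adjusted p = 0.146). The call between untransformed genotypes was lost without any 1 of WT untransformed replicate 1, WT untransformed replicate 2, WT untransformed replicate 3, KO untransformed replicate 1, KO untransformed replicate 2 and KO untransformed replicate 3 (adjusted p = 0.0560 to 0.128).

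Clec4e (chr6:123281789-123289870) and its neighbour Clec4d (chr6:123262111-123275265), which encode C-type lectin receptors for microbial glycolipids, followed, with a rise in both genotypes for Clec4e and in WT for Clec4d. Clec4e stood at 315, 291, 109 and 192 CPM in WT untransformed and 372, 376 and 439 CPM in KO untransformed libraries. It was at 565, 819.6 and 1183 CPM in WT p210 and 1477, 986, 1031 and 1146 CPM in KO p210 libraries, without overlap between states in either genotype. The rise was 3.78-fold in WT (1.92 ± 0.33, adjusted p = 0.000895), kept in all 24 alternatives, and 2.93-fold in KO (1.55 ± 0.34, adjusted p = 0.00460), lost with the cell line as a block (1.59, adjusted p = 0.0611). Between untransformed genotypes it lay above WT without passing the test (0.80 ± 0.33, adjusted p = 0.111). Clec4d stood at 111, 70.1, 43.0 and 45.3 CPM in WT untransformed and 202, 251 and 161 CPM in KO untransformed libraries. It was at 162, 267 and 156 CPM in WT p210 and 639, 263, 161 and 307 CPM in KO p210 libraries. It was higher in KO than in WT untransformed lines (1.61 ± 0.44, adjusted p = 0.0330) and higher with p210 in WT lines (1.54 ± 0.44, adjusted p = 0.0169), both without overlap. In KO lines the states overlapped (0.74 ± 0.45, adjusted p = 0.220). The call for Clec4d between genotypes was lost without any 1 of WT untransformed replicate 2, WT untransformed replicate 3, WT untransformed replicate 4, KO untransformed replicate 1 and KO untransformed replicate 2 (adjusted p = 0.0634 to 0.139). That with p210 was lost without WT p210 replicate 2 (adjusted p = 0.0709).

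Il1f9 (chr2:24186476-24193568), the cytokine IL-36 gamma, was the late gene with the largest fold between untransformed genotypes among those that passed. It stood at 6.78, 3.85, 0.384 and 5.24 CPM in WT untransformed and 24.3, 42.9 and 55.1 CPM in KO untransformed libraries, a 10.1-fold difference without overlap (3.34 ± 0.77, adjusted p = 0.0176). After p210 it was at 10.8, 8.50 and 8.53 CPM in WT and 34.1, 119, 17.1 and 87.0 CPM in KO libraries, again without overlap, and the difference did not pass edgeR's test, at a log2 fold change of 2.79 ± 0.81 (adjusted p = 0.0757), but did so without WT untransformed replicate 3 (adjusted p = 0.0273). Its level was higher after p210 in all 6 lines, with log2 fold changes that did not pass the test in WT (1.20 ± 0.74, adjusted p = 0.221) or KO (0.65 ± 0.74, adjusted p = 0.518). The call between untransformed genotypes was lost without KO untransformed replicate 2 (adjusted p = 0.0716).

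The stefins, intracellular inhibitors of cysteine proteases that lie in a cluster on chromosome 16, were near 0 before transformation. Stfa1 had 29 counts over the 4 WT untransformed libraries, Stfa2 had 9, Stfa3 had 4 and Stfa2l1 had 48. In the 3 KO untransformed libraries the first 3 had 0 counts, which allows up to 3 counts or 0.0305 CPM, and Stfa2l1 had 4. After p210, Stfa2l1 stood at 7.50, 2.12 and 3.96 CPM in WT and 3.45, 23.6, 2.50 and 114 CPM in KO libraries. Stfa1 stood at 5.58, 0.705 and 2.39 CPM in WT and 1.83, 20.6, 1.57 and 20.9 CPM in KO libraries. Stfa2 was at 3.36, 0.201 and 2.99 CPM in WT and 1.67, 8.41, 0.262 and 22.5 CPM in KO libraries, and Stfa3 at 2.01, 0.0672 and 2.28 CPM in WT and 0.784, 2.93, 0.204 and 6.20 CPM in KO libraries. All 4 were higher after p210 in all 6 lines, with the highest value of each in KO p210 replicate 4, and between states the groups overlapped for Stfa3 in WT and in no other case.

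The p210 effect on the stefins was large in both genotypes but rested on few counts in untransformed lines. They passed the filter only through p210 libraries, so a rise was the only call open to them. From pooled counts, the ratio of WT p210 to WT untransformed was 15.8 (95% interval 10.7 to 24.1) for Stfa1, 35.6 (95% interval 18.3 to 79.2) for Stfa2, 51.7 (95% interval 19.6 to 193) for Stfa3 and 14.8 (95% interval 10.9 to 20.4) for Stfa2l1. These intervals are exact and cover counting error only. In KO lines Stfa1 was at least 362-fold higher, Stfa2 at least 261-fold and Stfa3 at least 80.2-fold, taking 3 counts over the KO untransformed libraries as the floor, and the ratio for Stfa2l1 was 864 (337 to 3173). The counts lay unevenly among the libraries. Without WT untransformed replicate 4, which held 26 of the 29 Stfa1 counts, the ratios in WT were 113 (38.1 to 549.7) for Stfa1, 78.7 (26.5 to 385) for Stfa2, 152 (26.8 to 6073) for Stfa3 and 52.2 (28.1 to 109.7) for Stfa2l1. Without WT p210 replicate 1 the ratio was 7.18 for Stfa1, 22.1 for Stfa2 and 9.0 for Stfa2l1, and without WT p210 replicate 2 it was 54.2 for Stfa2 and 80.1 for Stfa3. Without WT untransformed replicate 2 it was 23.2 for Stfa2. In KO lines, leaving out KO p210 replicate 4 lowered the bounds to 257-fold for Stfa1, 107-fold for Stfa2 and 40.5-fold for Stfa3, and the Stfa2l1 ratio to 236 (92.0 to 869.9). Leaving out KO untransformed replicate 3, which raises the floor, gave bounds of 175, 126 and 38.8. The adjusted p in WT was 0.0295 for Stfa2, 0.0156 for Stfa3, 0.0368 for Stfa2l1 and 0.0504 for Stfa1, which missed the threshold and passed without any 1 of WT untransformed replicate 4, WT p210 replicate 2, KO p210 replicate 1 and KO p210 replicate 3 (adjusted p = 0.0140 to 0.0489) and with DESeq2 (adjusted p = 0.0114). In WT the call for Stfa2 was lost without any 1 of WT untransformed replicate 1, WT untransformed replicate 2, WT untransformed replicate 3, WT p210 replicate 1 and WT p210 replicate 3 (adjusted p = 0.0571 to 0.0699). That for Stfa2l1 was lost without any 1 of WT untransformed replicate 1, WT untransformed replicate 2, WT untransformed replicate 3, WT p210 replicate 1 and WT p210 replicate 3 (adjusted p = 0.0621 to 0.102). With the cell line as a block Stfa1 passed in WT as well (adjusted p = 0.0203). In KO the adjusted p was 0.00639 for Stfa1, 0.00794 for Stfa2, 0.00963 for Stfa3 and 0.00290 for Stfa2l1. Between p210 genotypes the log2 fold changes ran from 0.81 ± 1.17 for Stfa3 to 2.99 ± 1.29 for Stfa2l1 with overlapping groups, and 0 of 4 passed.

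Reads that map to several places were not counted, so reads from stretches that near copies share are missing from the stefin and lysozyme values. The first 90 coding bases (GENCODE M21, GRCm38, 5′ to 3′) are shown because reads can be told apart only where such bases differ. Capitals mark bases that differ from Stfa2, for the stefins, or from Lyz2, for the lysozymes.
Stfa2: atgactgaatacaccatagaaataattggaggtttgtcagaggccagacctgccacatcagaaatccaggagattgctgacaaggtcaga
Stfa2l1: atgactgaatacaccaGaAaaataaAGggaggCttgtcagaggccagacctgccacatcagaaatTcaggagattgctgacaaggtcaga
Stfa3: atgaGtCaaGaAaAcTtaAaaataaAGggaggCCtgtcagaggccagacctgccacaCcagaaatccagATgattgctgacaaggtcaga
Lyz2: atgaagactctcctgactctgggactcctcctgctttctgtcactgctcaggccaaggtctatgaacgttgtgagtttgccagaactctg
Lyz1: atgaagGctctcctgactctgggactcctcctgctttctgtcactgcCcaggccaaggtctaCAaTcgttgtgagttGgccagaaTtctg
Within this stretch Stfa2l1 differed from Stfa2 at 6 bases, Stfa3 at 14 and Lyz1 from Lyz2 at 7. Over the whole coding sequence Stfa2 and Stfa2l1 were identical at 298 of 309 bases (96.4%), and Stfa3 matched Stfa2 at 80.9% and Stfa2l1 at 81.6%. Lyz1 and Lyz2 were identical at 422 of 444 bases (95%). Of the 50-base windows of their transcripts, the length of a read, 24.6% of Stfa2l1, 15.9% of Stfa2 and 22.5% of Stfa1 also occur in another gene, against 0% of Stfa3. For Stfa1 the sharing genes were BC100530 and BC117090 and not the other members. The shares were 16.1% for Lyz1 and 15.4% for Lyz2, each with the other.

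Calprotectin, the calcium-binding pair S100a8 and S100a9, was abundant and spread widely. S100a8 (chr3:90668978-90670035) stood at 118, 13, 8.64 and 185 CPM in WT untransformed and 201, 336 and 252 CPM in KO untransformed libraries. It was at 183, 243 and 52.3 CPM in WT p210 and 60.6, 1063, 576 and 3252 CPM in KO p210 libraries. S100a9 (chr3:90692632-90695721) stood at 145, 17.7, 12.5 and 230.1 CPM in WT untransformed and 199.8, 380.4 and 299 CPM in KO untransformed libraries. It was at 213, 522 and 67.9 CPM in WT p210 and 95.6, 1586, 762 and 5472 CPM in KO p210 libraries. Both genes kept the same order of libraries in KO p210, with replicate 4 highest and replicate 1 lowest. Neither passed edgeR's test in any comparison. For KO against WT the log2 fold change of S100a9 was 1.53 ± 1.18 (adjusted p = 0.398) in untransformed and 2.89 ± 1.32 (adjusted p = 0.250) in p210 lines, and that of S100a8 was 1.69 ± 1.15 (adjusted p = 0.332), without overlap, and 2.95 ± 1.28 (adjusted p = 0.225). With p210 in KO, S100a9 was at 2.76 ± 1.31 (adjusted p = 0.119) and was called by DESeq2 (adjusted p = 0.0271), and S100a8 was at 2.23 ± 1.24 (adjusted p = 0.177). Per length, on the deposited TPM scale, S100a9 reached 11181 ± 13217 TPM in KO p210 (SD, n = 4), behind Lyz2 at 13832 ± 4149.7 TPM, and these did not differ beyond their spread.

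The formyl peptide receptors Fpr1 and Fpr2, which sense bacterial peptides, had larger values in KO libraries but did not pass the test. Fpr1 stood at 5.70, 2.53, 0.192 and 3.06 CPM in WT untransformed and 14.3, 20.4 and 8.45 CPM in KO untransformed libraries. It was at 3.67, 2.42 and 1.47 CPM in WT p210 and 10.1, 28.7, 5.64 and 30.1 CPM in KO p210 libraries, and the genotypes overlapped in neither state. Fpr2 stood at 11.5, 2.53, 0.329 and 6.24 CPM in WT untransformed and 42.2, 68.6 and 28.0 CPM in KO untransformed libraries. It was at 3.77, 1.58 and 0.761 CPM in WT p210 and 3.60, 26.0, 15.1 and 61.8 CPM in KO p210 libraries, where the genotypes overlapped. Neither passed edgeR's test, with log2 fold changes in untransformed lines of 2.33 ± 0.82 (adjusted p = 0.0719) for Fpr1 and 3.18 ± 1.01 (adjusted p = 0.0540) for Fpr2. In p210 lines these were 2.88 ± 0.90 (adjusted p = 0.0946) and 3.68 ± 1.15 (adjusted p = 0.0944). Of the 50-base windows of Fpr2, 31.5% also occur in Gm5966, Fpr3 or Fpr1. Trem1, a receptor that amplifies inflammatory signals, ranged over 0.686 to 26.5 CPM in WT untransformed, 51.2 to 59.4 CPM in KO untransformed, 11.6 to 31.2 CPM in WT p210 and 42.6 to 111 CPM in KO p210 libraries. It passed edgeR's test on all libraries in no comparison. Between untransformed genotypes it passed with DESeq2 (adjusted p = 0.0278). Between p210 genotypes it passed in the first label code alone, at 2.29 (adjusted p = 0.0458). Between untransformed genotypes Fpr1 passed without WT untransformed replicate 1 (adjusted p = 0.0469) and with DESeq2 (adjusted p = 0.0170). Fpr2 passed there without any 1 of WT untransformed replicate 1, KO p210 replicate 1 and KO p210 replicate 4 (adjusted p = 0.0367 to 0.0454) and with DESeq2 (adjusted p = 0.00517).

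Among monocyte genes, Emr1 (chr17:57358686-57483529), listed as Adgre1 in current annotation and used as a macrophage marker, passed in 2 comparisons. It stood at 95.7, 52.7, 12.3 and 32.5 CPM in WT untransformed and 264, 369.9 and 189 CPM in KO untransformed libraries. It was at 155, 157 and 554 CPM in WT p210 and 648, 371, 236 and 304 CPM in KO p210 libraries. WT untransformed libraries lay below all other groups. It was higher in KO than in WT untransformed lines by 5.69-fold (2.51 ± 0.65, adjusted p = 0.0260) and higher with p210 in WT by 5.98-fold (2.58 ± 0.65, adjusted p = 0.00841), the latter lost with the cell line as a block (2.37, adjusted p = 0.131) and without WT p210 replicate 3 (1.69, adjusted p = 0.0541). The call between genotypes was lost without any 1 of WT untransformed replicate 2, WT untransformed replicate 4, KO untransformed replicate 1 and KO untransformed replicate 2 (adjusted p = 0.0528 to 0.111). In KO lines the states overlapped, at 0.51 ± 0.64 (adjusted p = 0.568), and the interaction did not pass (-2.07 ± 0.89, adjusted p = 0.334).

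F13a1 (chr13:36867178-37050244), the A subunit of clotting factor XIII, was lower after p210 in all 6 lines. It stood at 214, 67.4, 369 and 261 CPM in WT untransformed and 694, 859 and 751 CPM in KO untransformed libraries. It was at 165, 34.5 and 18.2 CPM in WT p210 and 6.74, 137, 168 and 32.4 CPM in KO p210 libraries. The fall passed the test in KO, without overlap, at a log2 fold change of -3.15 ± 0.97 (adjusted p = 0.0243), and not in WT (-1.65 ± 0.99, adjusted p = 0.206). Without WT p210 replicate 1, whose value was the highest of its group, the change in WT was -3.13 (adjusted p = 0.0491). Between untransformed genotypes KO lay above WT without overlap, and the difference did not pass edgeR's test on all libraries. With only the groups compared it passed, at a log2 fold change of 1.75 (adjusted p = 0.0444). Of the 40 members F13a1 was the 1 for which WT untransformed replicate 3 was the highest of its group. Klf4, a transcription factor needed for monocyte formation, was at most 2.00 CPM in any library. It stood at 2.00, 1.65 and 0.727 CPM in KO untransformed and 0.157, 0.116, 0.0291 and 0.234 CPM in KO p210 libraries, a fall without overlap (-3.44 ± 0.76, adjusted p = 0.00443). In WT it was at 1.39, 0.830, 0.192 and 0.828 CPM before and 0.753, 0.168 and 0.254 CPM after p210 (-1.0 ± 0.71, adjusted p = 0.285). Klf4 had 34 counts over the WT p210 and 13 over the KO p210 libraries. It passed the filter only through untransformed libraries, so a fall was the only call open to it. The call for F13a1 was lost without any 1 of KO untransformed replicate 2, KO untransformed replicate 3 and KO p210 replicate 4 (adjusted p = 0.0513 to 0.0558).

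Mrc1 (chr2:14229392-14332057), the macrophage mannose receptor, had p210 fold changes of opposite sign in the genotypes, and neither passed edgeR's test. It stood at 32.8, 25.4, 17.2 and 21.9 CPM in WT untransformed and 122, 136 and 84.5 CPM in KO untransformed libraries. It was at 384, 14.3 and 176 CPM in WT p210 and 4.02, 3.28, 1.43 and 51.2 CPM in KO p210 libraries. Between untransformed genotypes KO lay above WT without overlap, and the difference did not pass edgeR's test on all libraries. With only the groups compared it passed, at a log2 fold change of 2.23 (adjusted p = 0.00838). In WT the states overlapped through WT p210 replicate 2, and in KO all p210 libraries lay below all untransformed. The log2 fold change with p210 was 2.98 ± 1.12 (adjusted p = 0.0534) in WT and -2.93 ± 1.13 (adjusted p = 0.0599) in KO, and the interaction was -5.91 ± 1.59 (adjusted p = 0.198), the smallest adjusted p among the members. Without KO p210 replicate 4, whose value was the highest of its group, the p210 effect was 2.98 (adjusted p = 0.00945) in WT and -5.32 (adjusted p = 0.00198) in KO. The difference between p210 genotypes was then -6.07 (adjusted p = 0.00923) and the interaction -8.30 (adjusted p = 0.0209). Without WT p210 replicate 2, the lowest of its group, the effects were 3.53 (adjusted p = 0.0249) and -2.93 (adjusted p = 0.0366), and the effect in WT also passed without KO p210 replicate 3 (adjusted p = 0.0382). DESeq2 called the difference between p210 genotypes, at -3.68 (adjusted p = 0.0134), and both effects, at adjusted p = 0.0195 and 0.0216.

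Ly6c2, a surface marker of inflammatory monocytes, stood at 59.0, 4.93, 0.0823 and 28.9 CPM in WT untransformed and 94.7, 168 and 24 CPM in KO untransformed libraries. It was at 6.59, 5.74 and 3.45 CPM in WT p210 and 18.5, 114, 9.10 and 29.7 CPM in KO p210 libraries, where the genotypes did not overlap (3.01 ± 1.41, adjusted p = 0.263). Of its 50-base windows, 14.4% occur elsewhere, with Ly6c1 among the sharing genes. The IgG receptors differed among themselves. Fcgr1, the high-affinity receptor, was at 1.93, 2.57, 0.796 and 2.26 CPM in WT untransformed, 2.13, 1.80 and 2.18 CPM in KO untransformed, 3.29, 1.18 and 0.71 CPM in WT p210 and 0.888, 0.579, 0.407 and 1.29 CPM in KO p210 libraries. Its log2 fold change between untransformed genotypes was 0.11 ± 0.54 (adjusted p = 0.910). With p210 in KO it lay lower without overlap, at -1.37 ± 0.55 (adjusted p = 0.0662). That difference passed without any 1 of WT p210 replicate 1, WT p210 replicate 3 and KO p210 replicate 4 (adjusted p = 0.0329 to 0.0471) and with DESeq2 (adjusted p = 0.0436). Fcgr4 was at 7.05, 4.59, 0.796 and 4.09 CPM in WT untransformed, 18.8, 21.9 and 10.5 CPM in KO untransformed, 19.3, 7.42 and 9.03 CPM in WT p210 and 4.65, 12.6, 9.57 and 26.9 CPM in KO p210 libraries. It lay above WT in every KO untransformed library without passing the test (2.05 ± 0.67, adjusted p = 0.0587). It passed without any 1 of WT untransformed replicate 1, KO p210 replicate 1 and KO p210 replicate 4 (adjusted p = 0.0443 to 0.0480) and with DESeq2 (adjusted p = 0.0117).

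The genes shared by phagocytes gave the most uniform difference between untransformed genotypes: for all 7 the knockout libraries lay above every wild-type library. Lyz2 (chr10:117277331-117282321), the main macrophage lysozyme, stood at 2283, 1301, 174 and 1008 CPM in WT untransformed and 7864, 11694 and 7473 CPM in KO untransformed libraries. It was at 2218, 3682 and 844 CPM in WT p210 and 5435, 6637, 3765 and 8504 CPM in KO p210 libraries, where the genotypes again did not overlap. KO exceeded WT by 7.56-fold in untransformed lines (2.92 ± 0.68, adjusted p = 0.0180) and by 2.71-fold in p210 lines, which did not pass (1.44 ± 0.68, adjusted p = 0.271). Per length, Lyz2 had the highest mean of all members in each group, from 3348 ± 2430.3 TPM in WT untransformed (n = 4) to 22383 ± 5320.3 TPM in KO untransformed libraries (n = 3). The first of these overlapped Mpo at 2811 ± 2508 TPM. Its near copy Lyz1 (chr10:117287797-117292868) stood at 2.74, 1.79, 0.0823 and 1.40 CPM in WT untransformed and 18.3, 19.5 and 8.82 CPM in KO untransformed libraries. It was at 2.73, 2.65 and 0.964 CPM in WT p210 and 3.76, 5.40, 5.32 and 8.30 CPM in KO p210 libraries. Lyz1 had a log2 fold change of 3.38 ± 0.75 (adjusted p = 0.0150) between untransformed genotypes and 1.42 ± 0.75 (adjusted p = 0.320) between p210 genotypes. The call for Lyz2 was lost without any 1 of WT untransformed replicate 4 and KO untransformed replicate 2 (adjusted p = 0.0547 to 0.0818). That for Lyz1 was lost without any 1 of KO untransformed replicate 1 and KO untransformed replicate 2 (adjusted p = 0.0527 to 0.0716). The pair share sequence, so the low Lyz1 level beside that of Lyz2 is uncertain. With p210 in KO, Lyz1 lay lower without overlap, at -1.45 ± 0.71 (adjusted p = 0.129). This passed without WT untransformed replicate 3 (adjusted p = 0.0176).

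The NADPH oxidase, which makes superoxide in phagocytes, has the membrane subunits Cybb and Cyba and the cytosolic subunits Ncf1 and Ncf4. Cyba (chr8:122424776-122432930) stood at 139, 108, 81.9 and 88.4 CPM in WT untransformed and 283, 321 and 212 CPM in KO untransformed libraries. It was at 221, 240.3 and 217 CPM in WT p210 and 547, 461, 258 and 427 CPM in KO p210 libraries. The genotypes were apart in both states, by 1.38 ± 0.24 (adjusted p = 0.00735) in untransformed lines, kept in 21 of 23 alternatives, and by 0.90 ± 0.25 (adjusted p = 0.0618) in p210 lines, which did not pass. With p210 it rose in WT (1.12 ± 0.24, adjusted p = 0.00360), and in KO it passed with the cell line as a block, at 0.83 (adjusted p = 0.0203) against 0.64 ± 0.24 (adjusted p = 0.0592). It also passed without any 1 of WT untransformed replicate 1 and KO p210 replicate 3 (adjusted p = 0.0107 to 0.0448) and with DESeq2 (adjusted p = 0.0309). Between p210 genotypes Cyba passed without KO p210 replicate 3 (adjusted p = 0.0193) and with DESeq2 (adjusted p = 0.00619). Ncf1 (chr5:134220053-134229625) stood at 88.8, 45.6, 7.30 and 40.8 CPM in WT untransformed and 199, 236 and 152 CPM in KO untransformed libraries. It was at 139.9, 274 and 188 CPM in WT p210 and 548, 534, 367 and 558 CPM in KO p210 libraries. It was higher in KO by 4.31-fold in untransformed lines (2.11 ± 0.55, adjusted p = 0.0284) and rose with p210 in WT by 4.41-fold (2.14 ± 0.56, adjusted p = 0.00992), the latter lost with the cell line as a block (2.61, adjusted p = 0.0564). In p210 lines the genotypes were apart without passing the test (1.32 ± 0.57, adjusted p = 0.221). That difference passed without WT untransformed replicate 3 (adjusted p = 0.0389). With p210 in KO it lay higher without overlap, at 1.36 ± 0.57 (adjusted p = 0.0812). This passed without WT untransformed replicate 3 (adjusted p = 0.00620) and with DESeq2 (adjusted p = 0.0280). The genotype call for Cyba was lost without KO untransformed replicate 2 (adjusted p = 0.0521). That for Ncf1 was lost without any 1 of WT untransformed replicate 2, WT untransformed replicate 4, KO untransformed replicate 1 and KO untransformed replicate 2 (adjusted p = 0.0581 to 0.112).

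Ncf4 (chr15:78244801-78262580) stood at 62.4, 37.4, 7.57 and 26.0 CPM in WT untransformed and 117, 151 and 94.8 CPM in KO untransformed libraries. It was at 56.9, 59.8 and 60.2 CPM in WT p210 and 171, 159.5, 77.0 and 159 CPM in KO p210 libraries. It was higher in KO untransformed lines (1.86 ± 0.50, adjusted p = 0.0303), and the p210 lines gave 1.26 ± 0.52 (adjusted p = 0.197). The genotype call for Ncf4 was lost without any 1 of WT untransformed replicate 2, WT untransformed replicate 4, KO untransformed replicate 1 and KO untransformed replicate 2 (adjusted p = 0.0559 to 0.128). Cybb (chrX:9435252-9487771) had lower means after p210 than before in both genotypes. It stood at 275, 113, 5.21 and 132 CPM in WT untransformed and 645, 1035 and 624 CPM in KO untransformed libraries. It was at 149.6, 32.3 and 14.5 CPM in WT p210 and 47.6, 212, 100.2 and 438 CPM in KO p210 libraries, below untransformed KO libraries without overlap. It passed edgeR's test on all libraries in no comparison, with log2 fold changes of 2.55 ± 1.06 (adjusted p = 0.120) for the knockout in untransformed lines and -1.95 ± 1.05 (adjusted p = 0.165) for p210 in KO lines. Fcgr3, the low-affinity IgG receptor, stood at 148, 91.4, 19.0 and 69.2 CPM in WT untransformed and 275, 299.7 and 184 CPM in KO untransformed libraries. It was at 294, 525 and 346 CPM in WT p210 and 339, 353, 433 and 711 CPM in KO p210 libraries. It rose with p210 in WT without overlap (2.25 ± 0.52, adjusted p = 0.00508) and missed the threshold between untransformed genotypes (1.63 ± 0.51, adjusted p = 0.0506). The latter passed without any 1 of WT untransformed replicate 1 and KO p210 replicate 4 (adjusted p = 0.0208 to 0.0472) and with DESeq2 (adjusted p = 0.00745). Of its 50-base windows, 9.58% also occur in Fcgr2b.

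Other genes of the same pathways were read from 3 further lists. Among 20 regulators of myeloid growth, 8 were higher and 1 lower in KO untransformed lines, where 8.73% of all genes were higher and 6.5% lower, the smallest adjusted p belonging to Il6ra (1.66 ± 0.26, adjusted p = 0.00572), the IL-6 receptor, Spi1 (1.20 ± 0.21, adjusted p = 0.00735), which encodes PU.1, Csf2rb (1.42 ± 0.27, adjusted p = 0.00919), the shared receptor chain for GM-CSF and IL-3, and Zeb2 (0.68 ± 0.16, adjusted p = 0.0176), a zinc finger repressor. Of 26 further neutrophil genes tested, 8 were higher and 0 lower, led by Cd33 (2.29 ± 0.36, adjusted p = 0.00572), Cd63 (0.62 ± 0.11, adjusted p = 0.00698), Itgb2 (1.15 ± 0.24, adjusted p = 0.0125) and Anxa1 (2.13 ± 0.47, adjusted p = 0.0154). Of 20 further monocyte genes tested, 9 were higher and 0 lower, led by Adgre4 (1.75 ± 0.27, adjusted p = 0.00572), Fcgr2b (1.48 ± 0.33, adjusted p = 0.0160), Cd68 (1.98 ± 0.52, adjusted p = 0.0270) and Ccr2 (1.55 ± 0.41, adjusted p = 0.0292). In p210 lines, where 0.882% of all genes were higher in KO and 3.56% lower, the genotypes differed for 1 regulator, Zeb2 (0.77 ± 0.16, adjusted p = 0.0216), 0 further neutrophil genes and 1 further monocyte gene, Adgre4 (1.83 ± 0.29, adjusted p = 0.00615). For the interaction edgeR called 0 in each list, where 0.0345% of all genes passed. At an unadjusted p under 0.05 there were 4, 4 and 5, where 14.1% of all genes were.

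With p210, 12 of the 26 further neutrophil genes rose and 0 fell in WT lines, where 21.9% of all genes rose and 17.6% fell. In KO lines 7 rose and 1 fell, where 19.2% of all genes rose and 18.0% fell. Among them were Alox5, which makes leukotrienes, at 3.66 ± 0.62 (adjusted p = 0.000808) in WT and 3.53 ± 0.67 (adjusted p = 0.00193) in KO, and the granule proteoglycan Srgn at 1.37 ± 0.19 (adjusted p = 0.000249) and 1.04 ± 0.20 (adjusted p = 0.00198). Of the further monocyte genes 5 rose and 2 fell in WT, and 2 rose and 8 fell in KO lines, with Cd300e at -4.07 ± 0.80 (adjusted p = 0.00196) in WT and -3.09 ± 0.59 (adjusted p = 0.00185) in KO, and Fn1, fibronectin, at -8.40 ± 1.65 (adjusted p = 0.00234) in KO. Among regulators 3 rose and 3 fell in WT, and 2 rose and 4 fell in KO lines, where Csf2rb rose in WT (2.63 ± 0.28, adjusted p = 4.74e-05) and in KO (1.35 ± 0.28, adjusted p = 0.00318) and Zeb2 fell in WT (-1.09 ± 0.16, adjusted p = 0.000382) and in KO (-1.01 ± 0.16, adjusted p = 0.000603). The median log2 fold change over the further monocyte genes was 0.20 in WT and -1.76 in KO lines, beside 0.02 and -0.01 over all genes.

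Markers of other lineages also differed between the groups. Of 10 megakaryocyte markers 5 were lower and 0 higher in KO untransformed lines, where 6.5% of all genes were lower and 8.73% higher. Their sums in untransformed lines were 2532 to 7348 CPM in WT and 1310.4 to 1988 CPM in KO. With p210, 21.9% of all genes rose and 17.6% fell in WT lines, and 19.2% rose and 18.0% fell in KO lines. Of 11 mast cell and basophil markers tested, 4 rose and 3 fell with p210 in WT lines and 4 rose and 0 fell in KO lines. Their sums were 1635 to 7690.4 CPM in WT and 2987 to 3333 CPM in KO untransformed lines, 5076 to 15163 CPM in WT p210 and 7747 to 11640.2 CPM in KO p210 lines, and Mrgprb2 and Tpsab1 were at 0 in KO p210. Of 12 progenitor markers, 5 fell with p210 in WT and 8 in KO lines, and 0 rose. Of the 10 megakaryocyte markers, 5 fell with p210 in each genotype and 0 rose. Between p210 genotypes, 5 of 12 progenitor, 2 of 10 megakaryocyte and 2 of 5 erythroid markers were lower in KO and 0 of them higher. Of all genes, 3.56% were lower and 0.882% higher in that comparison. Dendritic cell markers were at 13.6 to 133 CPM in WT and 165 to 284 CPM in KO untransformed lines, with Siglech and Xcr1 at 0 in both. Between these genotypes 0 of 5 dendritic markers tested passed, where 15.2% of all genes did. Sums of B cell, T and NK cell, eosinophil and erythroid markers reached at most 144 CPM in any library. The part of these markers in the results above was not tested.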

How the data were processed

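Libraries of bulk RNA (14 in all) came from the SENSE mRNA-Seq kit, with single-end reads of 50 bases, per the labels' protocols. Reads were trimmed with Trimmomatic, aligned to GRCm38 (mm10) with STAR and counted with featureCounts, per the submitters' processing notes; for Trimmomatic and STAR a version is not given in the sources used here. Deposited values are reads counted per gene by the authors with featureCounts 1.5.1 on GENCODE M13, per the file headers, reverse-stranded and without reads that map to several places. The authors also deposited TPM, which equalled values recomputed from the counts within 0.05. Of 50686 genes, 50376 were given a symbol from the gene table. The member Emr1 was found through its RefSeq synonym, as Adgre1.

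The 14 libraries were fitted together in edgeR 4.0.16 (R 4.3.3) with group means, TMM scaling and robust quasi-likelihood tests, and p-values were adjusted by the Benjamini-Hochberg method over the 14512 genes that passed filterByExpr (minimum count 10, minimum total 15). The procedure was tested on simulated data. CPM were computed on TMM-scaled library sizes. Intervals and floors of 3 counts cover counting error only. Per the labels, a code and a letter within genotype were read as a cell line, and 6 lines are present in both states. Deviations from group means of the 6 same-line pairs correlated at 0.0207 to 0.163 (median 0.0972), against -0.110 to 0.0751 for other lines of the genotype. Same-numbered libraries of the other genotype correlated at -0.153 to 0.119 (median -0.0141). This range overlaps that of the same-line pairs, so a pairing of genotypes by number was neither shown nor excluded. Pooled ratios of counts have exact conditional intervals at 95%. Leaving out each library from these ratios was chosen after seeing the data. Near copies were counted as windows of 50 bases shared between transcripts of GENCODE M21. Alternatives were RLE scaling, unscaled library sizes, no filter, DESeq2 1.42.0, only the groups compared, either label code alone, blocks by title number or cell line, each library left out, and WT untransformed replicate 3 and KO p210 replicate 2 left out together. The genes named were the 4 with the highest mean CPM in each stage, each member passing a genotype comparison or the interaction, the near-copy sets, and up to 4 genes of each further list. Members called with p210 and genes whose libraries stand apart were also named, after their values were seen. The members and lists were chosen with earlier results of these data known. Figures were drawn with matplotlib 3.10.9.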

Additional observations from a re-analysis of the deposited data

Results flagged for a closer look

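Single libraries far from the rest of their group were looked for in the 80 groups of 4 libraries that the members give, by comparing the gap to the nearest library with the whole range. This marked 9. For independent and normally distributed values, chance would mark about 1 in 20 groups, or 4 of 80. The members share libraries and CPM need not be normal, so 9 beside 4 does not measure an excess over chance. KO p210 replicate 4 was far above the others for 5 genes. Ltf was at 545 CPM there against 3.40 to 24.7 CPM in the other KO p210 libraries, Ngp at 1491 CPM against 13.1 to 148 CPM, Camp at 30.0 CPM against 0.104 to 3.86 CPM and Mmp9 at 89.5 CPM against 1.88 to 9.19 CPM. Mrc1, the macrophage mannose receptor, was at 51.2 CPM there against 1.43 to 4.02 CPM. KO p210 replicate 3 was far below the others for 2 cytosolic oxidase subunits, with Ncf1 at 367 CPM against 534 to 558 CPM and Ncf4 at 77.0 CPM against 159 to 171 CPM. WT untransformed replicate 4 was far above the others for 2 stefins, with Stfa1 at 0.652 CPM against 0 to 0.0449 CPM and Stfa2l1 at 0.953 CPM against 0.0377 to 0.137 CPM.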

How the results depend on the processing

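Every member that passed the test kept its direction under each alternative. The number passing between untransformed genotypes was 9 and became 4 with no filter on low counts, 19 with DESeq2 (18 higher and 1 lower), 4 in the first label code alone and 0 in the second. The 1 lower was Stfa1, with 0 counts in KO and 29 in WT untransformed libraries, most of them in WT untransformed replicate 4. Between p210 genotypes it was 0 and became 7 with DESeq2 and 3 in the first label code. With p210 in WT it was 13 and became 8 with only the groups compared, 6 in the first code and 2 in the second, and with p210 in KO it was 11 and became 17 with DESeq2 and 0 in the second code. The interaction count of 0 became 2 with DESeq2. Leaving out each library in turn gave 0 to 14 between untransformed genotypes, 0 to 3 between p210 genotypes, 8 to 14 with p210 in WT, 8 to 13 with p210 in KO and 0 to 1 for the interaction. With the cell line as a block the counts were 9 in WT and 10 in KO. With the title number as a block they were 13 and 1 between untransformed and p210 genotypes, 14 and 12 with p210, and 0 for the interaction. A pairing of genotypes by number was neither shown nor excluded. RLE scaling or unscaled library sizes gave 10 or 9 between untransformed genotypes and the same 13 and 11 with p210. Where a count changed, the cause was not tested. Depth limits the stefins, which have 0 to 48 counts per untransformed group, and Ly6g. It also limits Klf4, which has 34 counts over the WT p210 and 13 over the KO p210 libraries.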
